A study of Mus musculus with 4 samples.

Results

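Kidney cytochrome P450 genes were followed here as a group of 9, *Cyp7b1*, *Cyp2e1*, *Cyp4b1*, *Cyp2j5*, *Cyp2j13*, *Cyp2a4*, *Cyp24a1*, *Cyp27b1* and *Cyp2d26*, in single-nucleus RNA-seq of mouse kidney. They were chosen by symbol with earlier results of these data known, as 9 of the 31053 genes and of the 101 P450 genes in the files. They held 232281 of the 303929 P450 UMIs in nuclei of named classes (76.4%). A UMI, or unique molecular identifier, marks 1 captured RNA molecule. All 4 mice were 12-week-old males homozygous for a floxed *Tfap2a* allele. The 2 control mice carried no Cre, and the 2 knockout mice carried *Hoxb7Cre*, which is active in the ureteric lineage that forms the collecting duct and not in the proximal tubule. A middle slice of each kidney was taken and part of its cortex trimmed away, stored in RNAlater, and made into 1 droplet library per mouse, so that the amount of each tubule segment in a sample depends on the dissection.

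P450 enzymes are heme proteins of the endoplasmic reticulum or the mitochondria that insert 1 atom of oxygen into their substrate and take the electrons for it from partner proteins. In the kidney they are found above all in the proximal tubule, which runs from the S1 segment at the glomerulus through S2 to the straight S3 segment in the outer medulla. They act there on steroids, on fatty acids such as arachidonic acid, on drugs and solvents, and on vitamin D, whose active form is both made and broken down by renal P450 enzymes.

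The libraries held between 22179410 and 44964099 UMIs. After the filters 27341 nuclei were kept, with a median between 2505 and 2797 UMIs per mouse, and 25188 of them went into named classes. Proximal tubule nuclei numbered 13704, of which 4870 were S1, 5692 were S2 and 3142 were S3. The 5 clusters behind these segments are called S1a, S1b, S2a, S2b and S3. S1a had all 8 listed S1 markers and the S3 cluster all 8 listed S3 markers, whereas S2b had all 6 S2 markers together with 7 of the 8 S3 markers. P450 genes took no part in the clustering or in the names, but the segments were drawn from other genes of the same nuclei, so p-values between segments are not independent of the clustering. Levels are UMIs per 1000000 UMIs (CPM) of all nuclei of a class in a mouse, and they were not compared between genes because the counts are not scaled to transcript length. Free RNA in the droplets, estimated from barcodes under 100 UMIs, could make up 17.9% and 12.4% of the proximal tubule UMIs in control mice 1 and 2 and 18.1% and 5.58% in knockout mice 1 and 2. The share was set from markers of the thick ascending limb in the proximal tubule and from proximal tubule markers elsewhere. Some genes had fewer UMIs than this estimate gives, so it can be too high. A ratio of observed to free RNA UMIs near or below 1 therefore does not exclude low expression. Between 7 and 18 cell barcodes were shared by a pair of libraries. The targeted gene *Tfap2a* had 57.5 and 97.9 CPM in collecting duct principal cells (CD-PCs) of control mice 1 and 2 and 65.9 and 106 CPM in those of knockout mice 1 and 2. These levels overlapped, and since the libraries are read from the 3′ end, RNA without the floxed exons can still be counted, so they do not check the labels. In proximal tubule nuclei *Tfap2a* had between 1 and 3 UMIs in each mouse.

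All 9 genes differed between S3 and S1 (edgeR's quasi-likelihood test on sums per mouse, Benjamini-Hochberg adjusted over 17725 genes, adjusted p under 0.05). *Cyp7b1* and *Cyp2a4* were higher in S3 and the other 7 genes were lower. Of all genes tested, 42.8% were called in this comparison, 22.1% higher and 20.6% lower in S3. Between S2 and S1, 6 of the 9 genes were called, 3 higher and 3 lower in S2, beside 29.1% of all genes, 15.3% higher and 13.8% lower. Between S3 and S2 all 9 were called, with *Cyp7b1* alone higher in S3, beside 29.9% of all genes, 14.9% higher and 15% lower. The median change of all genes tested between S3 and S1 was 0.05 on the log2 scale. As the 9 genes were chosen with earlier results of these data known, their counts describe these genes and are no test of the P450 family.

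*Cyp7b1*, an oxysterol hydroxylase that also acts on steroids such as dehydroepiandrosterone and lies on chromosome 3 of GRCm38.p6 at chr3:18071944-18243890, marked the S3 end of the tubule. Its level in S3 was 5824 and 7270 CPM in control mice 1 and 2 and 7917 and 6289 CPM in knockout mice 1 and 2. In S2 it was 52.6, 76.0, 53.0 and 30.7 CPM in the same mice, and in S1 45.1, 31.9, 54.1 and 10.3 CPM. Each mouse was far higher in S3 than in either other segment, by 129 to 611 times against S1 and by 95.7 to 205 times against S2. The fitted log2 fold change was 7.56 ± 0.23 (SE, 4 mice) between S3 and S1 and 7.0 ± 0.22 between S3 and S2 (edgeR adjusted p = 7.75e-18 and 3.97e-17). Between S2 and S1 the fitted value was 0.56 ± 0.22 and did not pass the test (edgeR adjusted p = 0.061). It was called in the control mice alone (0.64, edgeR adjusted p = 0.0085), without knockout mouse 1 (0.85, adjusted p = 0.021), without a filter on low counts (0.59) and under 1% mitochondrial UMIs (0.62), and was −0.20 at a cluster resolution of 0.8 and −0.14 without the clusters S1b and S2b. In S1 and S2 the UMIs observed were 0.49 and 0.72 times those that free RNA alone would give. Over all nuclei of S1 or of S2, expression of *Cyp7b1* was thus not detectable above the free RNA estimate. Single nuclei of S2 stood out, with 5 or more UMIs in 28 of 5692 nuclei, against 0 of 4870 in S1. S3 nuclei made up 11.5% of all nuclei and held 88.6% of all *Cyp7b1* UMIs. When each nucleus was thinned to 1000 UMIs, between 88.8% and 95.9% of S3 nuclei of a mouse had at least 1 *Cyp7b1* UMI, against 1.95% to 7.08% of nuclei of the thick ascending limb (TAL), a class that stands for the background. Without thinning these shares were 95.6% to 98.4% in S3 and 3.99% to 11.9% in TAL, at median depths of 3201 to 3890 UMIs in S3 and 1860 to 2014 UMIs in TAL.

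*Cyp2e1*, *Cyp2a4* and *Cyp2d26* did not share 1 pattern. *Cyp2e1*, which oxidises ethanol and other small molecules and lies at chr7:140763819-140774990, was highest in S2, with 539 and 432 CPM in control mice 1 and 2 and 487 and 472 CPM in knockout mice 1 and 2. In S1 it had 280, 251, 357 and 254 CPM, and in S3 56.3, 27.1, 91.2 and 18.6 CPM. The ranges of the 3 segments over mice did not overlap, but those of their clusters did. S1a had 113 to 234 CPM and S1b 424 to 524 CPM, beside 476 to 664 CPM in S2a and 406 to 445 CPM in S2b. S1b thus overlapped with both clusters of S2. *Cyp2e1* rose by 0.81 ± 0.16 (SE, 4 mice) on the log2 scale from S1 to S2 and fell by 3.49 ± 0.19 from S2 to S3 (edgeR adjusted p = 3.42e-04 and 6.75e-13). The rise from S1 to S2 was not called by DESeq2 (adjusted p = 0.091) nor without the mouse as a term (edgeR adjusted p = 0.13). In S3 its UMIs were 0.84 times those of free RNA alone, with 18.6 to 91.2 CPM against 22.6 to 151 CPM in TAL. Expression in S3 was thus not detectable above the free RNA estimate.

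*Cyp2a4*, a steroid hydroxylase that acts on testosterone and lies at chr7:26307192-26315088, was the only other gene of the 9 to be higher in S3 than in S1. It had 72.1 and 51.1 CPM in S1 of control mice 1 and 2 and 116 and 45.9 CPM in S1 of knockout mice 1 and 2. In S2 it had 226, 144, 320 and 172 CPM and in S3 151, 81.3, 197 and 134 CPM. The range of S3 overlapped with those of both other segments, yet in each of the 4 mice S2 was highest and S1 lowest, and knockout mouse 1 was highest in all 3 segments. The log2 fold change was 1.64 ± 0.10 (SE, 4 mice) from S1 to S2 and 0.95 ± 0.10 from S1 to S3 (edgeR adjusted p = 3.80e-12 and 4.20e-08), and *Cyp2a4* fell by 0.69 ± 0.09 from S2 to S3 (edgeR adjusted p = 1.53e-06). The last call was lost when the mouse was left out as a term (edgeR adjusted p = 0.148). Its near copy *Cyp2a5* lies on the same chromosome at chr7:26835339-26843264, and reads that fit both genes may have been split or dropped, so both levels are uncertain. *Cyp2a5* fell by 1.52 ± 0.19 on the log2 scale from S1 to S3 (edgeR adjusted p = 4.03e-07), where *Cyp2a4* rose.

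*Cyp2d26*, a member of the Cyp2d subfamily of drug-metabolising enzymes at chr15:82790107-82794452, was an S1 gene. It had 125 and 91.7 CPM in S1 of control mice 1 and 2 and 118 and 127 CPM in S1 of knockout mice 1 and 2. In S2 it had 12.3, 7.04, 16.3 and 17.7 CPM and in S3 6.14, 3.97, 7.60 and 1.82 CPM. S1 was above both other segments in each mouse, with no overlap. *Cyp2d26* fell by 3.05 ± 0.13 (SE, 4 mice) on the log2 scale from S1 to S2 and by 4.61 ± 0.18 from S1 to S3 (edgeR adjusted p = 2.04e-14 and 6.98e-16). In S3 the 55 UMIs over all mice were 0.64 times those of free RNA alone. Other Cyp2d genes lie beside it, and how reads shared between them were counted is not given in the sources used here.

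The 3 genes whose products act on fatty acids shared high levels in S1 and S2 and differed in S3. *Cyp4b1* hydroxylates fatty acids and activates some plant toxins, and it lies at chr4:115624698-115647721. Its level in S2 was 1219 and 1499 CPM in control mice 1 and 2 and 1148 and 1554 CPM in knockout mice 1 and 2. In S1 it was 794, 1060, 924 and 1258 CPM and in S3 205, 88.1, 251 and 80.4 CPM. S1 and S2 overlapped over mice, although S2 was higher than S1 in 4 of 4 mice, and S3 was below both in each mouse. *Cyp4b1* fell by 3.23 ± 0.24 (SE, 4 mice) on the log2 scale from S2 to S3 (edgeR adjusted p = 1.86e-10), and the value from S1 to S2 was 0.46 ± 0.21 (edgeR adjusted p = 0.121). The value from S1 to S2 was larger and called without integration (1.25, edgeR adjusted p = 5.93e-06) and at a cluster resolution of 0.8 (1.01, edgeR adjusted p = 1.32e-10), and it was also called without a filter on low counts (0.48) and under 1% mitochondrial UMIs (0.52). The clusters within S1 differed from each other without overlap, those within S2 overlapped. *Cyp4b1* had 557 to 898 CPM in S1a, 1229 to 1720 CPM in S1b, 1310 to 1690 CPM in S2a and 1060 to 1469 CPM in S2b. With S1a and S2a alone, a choice made after the data were seen, the change from S1 to S2 was 1.19 on the log2 scale (edgeR adjusted p = 4.21e-05). In S3 the observed UMIs were 1.03 times those of free RNA alone, and the level was higher in the 2 libraries with more free RNA, control mouse 1 and knockout mouse 1.

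*Cyp2j5* and *Cyp2j13* belong to a family of arachidonic acid epoxygenases, *Cyp2j5* being known as an abundant one in the mouse kidney. Both are on chromosome 4 of GRCm38.p6, within 622 kb that hold 7 protein-coding Cyp2j genes, and 550 kb lie between the end of *Cyp2j13* (chr4:96042660-96077566, minus strand) and the start of *Cyp2j5* (chr4:96627432-96664171, minus strand). *Cyp2j5* was the most even of the 9 genes along the tubule. It had 878 and 1033 CPM in S1 of control mice 1 and 2 and 948 and 873 CPM in S1 of knockout mice 1 and 2. In S2 it had 1007, 1023, 957 and 1042 CPM and in S3 768, 783, 729 and 785 CPM. S3 lay below S1 and S2 in each mouse without overlap, but the level there was still 0.754 to 0.766 times that in S2. *Cyp2j5* fell by 0.48 ± 0.07 (SE, 4 mice) on the log2 scale from S2 to S3 and by 0.34 ± 0.07 from S1 to S3 (edgeR adjusted p = 8.94e-06 and 3.63e-04). From S1 to S2 the value was 0.14 ± 0.07 (edgeR adjusted p = 0.163).

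*Cyp2j13* had 390 to 739 CPM over mice in S1a and 920 to 1117 CPM in S1b, without overlap, and was lowest in S3. It had 651 and 625 CPM in S1 of control mice 1 and 2 and 772 and 904 CPM in S1 of knockout mice 1 and 2. In S2 it had 921, 839, 824 and 929 CPM and in S3 101, 85.3, 116 and 83.0 CPM. S1 and S2 overlapped, and S3 was below both in each mouse by 6.44 to 11.2 times. *Cyp2j13* fell by 3.27 ± 0.11 (SE, 4 mice) on the log2 scale from S2 to S3 (edgeR adjusted p = 9.47e-17). Its rise of 0.28 ± 0.09 from S1 to S2 (edgeR adjusted p = 0.025) was not called by DESeq2 (adjusted p = 0.14), without control mouse 1 or without control mouse 2 (edgeR adjusted p = 0.239 and 0.134), without the mouse as a term (adjusted p = 0.224) or with free RNA subtracted (adjusted p = 0.053). In S3 its UMIs were 3.48 times those of free RNA (95% interval 3.28 to 3.70, counting error only), so it was detectable there. *Cyp2e1* and *Cyp4b1* did not stand clearly above the free RNA estimate in S3. Since that estimate can be too high, low expression of these 2 genes there is not excluded. In nuclei thinned to 1000 UMIs, *Cyp2j5* was seen in 49.4% to 54.1% of S3 nuclei of a mouse and *Cyp2j13* in 7.35% to 10.5%, against 2.78% to 16.2% and 0.675% to 3.59% of TAL nuclei. Unthinned, the shares in S3 were 87.4% to 90.1% and 20.8% to 27.6%.

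The stretches before the starts of *Cyp2j5* and *Cyp2j13* are shown because both genes fall from S2 to S3, *Cyp2j13* far more than *Cyp2j5*. Those of *Cyp2e1* and *Cyp2a4* are shown because these genes change in opposite directions from S1 to S3. RefSeq promoters of GRCm38.p6 were at hand for 7 of the 9 genes, those of *Cyp7b1* and *Cyp24a1* not being in the table. The 250 bases before the listed start were searched on both strands for 5 short motifs, and matches on either strand are in capitals. The first was GTTAAT, known as a half-site of the factor HNF1. The second was AGGTCA, known as a half-site of nuclear receptors, and the third was CAAAGTC, which is typical for elements of the factor HNF4. The last ones were TATAAA, known from core promoters near the start, and CCAAT, which is common in promoters upstream of it. Bases that another annotated start places inside the gene are left out, so that *Cyp2j5* and *Cyp2j13* have 198 and 224 bases. No match overlapped with another. The windows are chr4:96664172-96664369 (minus strand), chr4:96077567-96077790 (minus strand), chr7:140763569-140763818 (plus strand) and chr7:26306942-26307191 (plus strand), in the order below, each written from 5′ to 3′ on the strand of the gene.
Cyp2j5: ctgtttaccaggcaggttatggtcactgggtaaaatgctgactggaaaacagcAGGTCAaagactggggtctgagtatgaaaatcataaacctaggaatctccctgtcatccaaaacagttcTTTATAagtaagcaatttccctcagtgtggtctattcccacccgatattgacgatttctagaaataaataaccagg
Cyp2j13: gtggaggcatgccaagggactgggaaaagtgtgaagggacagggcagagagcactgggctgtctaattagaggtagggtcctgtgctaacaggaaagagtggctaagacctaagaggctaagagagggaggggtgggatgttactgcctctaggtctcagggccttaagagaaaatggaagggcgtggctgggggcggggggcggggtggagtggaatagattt
Cyp2e1: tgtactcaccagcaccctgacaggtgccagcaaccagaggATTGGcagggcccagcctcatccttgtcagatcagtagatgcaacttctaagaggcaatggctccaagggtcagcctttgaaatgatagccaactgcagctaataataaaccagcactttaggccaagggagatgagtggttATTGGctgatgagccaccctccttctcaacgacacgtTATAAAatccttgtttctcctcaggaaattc
Cyp2a4: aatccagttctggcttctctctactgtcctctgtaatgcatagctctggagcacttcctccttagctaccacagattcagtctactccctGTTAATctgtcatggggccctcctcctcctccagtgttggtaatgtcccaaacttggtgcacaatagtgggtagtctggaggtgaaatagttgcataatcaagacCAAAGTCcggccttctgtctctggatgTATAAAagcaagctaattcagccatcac
The window of *Cyp2j5* held 1 AGGTCA, 197 to 192 bases before its listed start, and 1 TATAAA on the other strand, 128 to 123 bases before it. These positions include the 52 bases left out between the end of the stretch shown and the listed start. The window of *Cyp2j13* held none of the 5 motifs. *Cyp2e1* had a TATAAA 31 to 26 bases before its start and 2 CCAAT on the other strand. *Cyp2a4* had a TATAAA 28 to 23 bases, a CAAAGTC 55 to 49 bases and a GTTAAT 160 to 155 bases before its start. In the full windows of 250 bases of the 7 genes, GTTAAT was found in 2, AGGTCA in 1, CAAAGTC in 1, TATAAA in 4 and CCAAT in 3. These counts include a GTTAAT and a TATAAA of *Cyp2d26* that lie among the 207 bases of its window inside the gene. Of the full windows of 27025 genes, 6.52%, 13.8%, 3.8%, 13% and 34.5% held them. A match of letters is a description and not a bound site.

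The vitamin D genes lay at the S1 end. *Cyp27b1*, which makes the active hormone and lies at chr10:127048246-127054884, had 8.75 and 19.7 CPM in S1 of control mice 1 and 2 and 16.8 and 12.2 CPM in S1 of knockout mice 1 and 2. In S2 it had 0.832, 2.59, 1.95 and 1.14 CPM, and in S3 3 UMIs in all. S1 was above S2 in each mouse, by 7.61 to 10.7 times. The log2 change from S1 to S2 was −3.14 ± 0.25 (SE, 4 mice, edgeR adjusted p = 6.04e-10). Over all mice S1 was 51.4 times S3 (95% interval 17.3 to 252, counting error only). *Cyp24a1*, which starts the breakdown of the hormone and lies at chr2:170482957-170497145, had 29.2 and 63.9 CPM in S1 of control mice 1 and 2 and 31.1 and 159 CPM in S1 of knockout mice 1 and 2. In S2 it had 8.48, 18.2, 4.94 and 26.7 CPM, and in S3 12 UMIs in all. It was higher in S1 than in S2 in each mouse, by 3.44 to 6.30 times, while the levels within S1 ran from 29.2 to 159 CPM over mice. The log2 change from S1 to S2 was −2.25 ± 0.14 (edgeR adjusted p = 9.63e-12), and over all mice S1 was 64.6 times S3 (95% interval 36.8 to 125, counting error only). In both genotypes the mouse numbered 2 had more *Cyp24a1* than the mouse numbered 1 in S1 and in S2, and these 2 mice had less free RNA and a lower mitochondrial share (median 0.671% and 0.417% against 1.66% and 1.05%); the part of these in the difference was not tested. *Cyp27b1* in S1 was higher in number 2 among the controls and lower among the knockout mice. The share of S1a nuclei with a UMI, thinned to 1000 UMIs, was 1.78% to 14.7% for *Cyp24a1* and 0.871% to 2.39% for *Cyp27b1*, against at most 0.225% and 0.189% in TAL.

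The border between S2 and S3 set some of these values. At a cluster resolution of 0.8 a cluster of 3465 nuclei with both S2 and S3 markers took the name S3, at scores of 0.238 for S3 and 0.207 for S2, and then 7 of the 9 genes were called between S3 and S1. *Cyp4b1* was no longer called (−0.09, edgeR adjusted p = 0.419), nor was *Cyp2j5* (0.01, edgeR adjusted p = 0.930), and *Cyp2e1* was higher in S3 (0.40, edgeR adjusted p = 5.66e-04). From S2 to S3 *Cyp2j5* was then −0.16 and *Cyp2a4* 0.18, and neither was called (edgeR adjusted p = 0.102 and 0.288). The mean level of *Cyp7b1* in S3 was then 3305 CPM in place of 6825 CPM.

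To see the genes without cluster borders, the 13704 proximal tubule nuclei of all mice were ordered by the mean of the S3 markers less that of the S1 markers and split into 10 equal bins. Along this order *Cyp2d26*, *Cyp27b1* and *Cyp24a1* were highest in the first bins, with means over the 4 mice of 143, 20.2 and 80.5 CPM in bin 1, and fell to 3.39, 0.121 and 0.959 CPM in bin 10. *Cyp4b1* and *Cyp2j13* peaked in bin 4 at 1466 and 946 CPM, and *Cyp2e1* in bin 5 at 549 CPM. *Cyp2a4* peaked later, with 227 CPM in bins 6 and 7. *Cyp2j5* stayed between 787 and 1027 CPM throughout. *Cyp7b1* remained between 31.4 and 38.2 CPM in bins 1 to 5 and then climbed to 153 CPM in bin 6, 493 CPM in bin 7, 2116 CPM in bin 8, 5295 CPM in bin 9 and 7179 CPM in bin 10. The order of the nuclei within a bin was not resolved, and the 4 mice gave different numbers of nuclei to each bin.

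**Figure D1:**
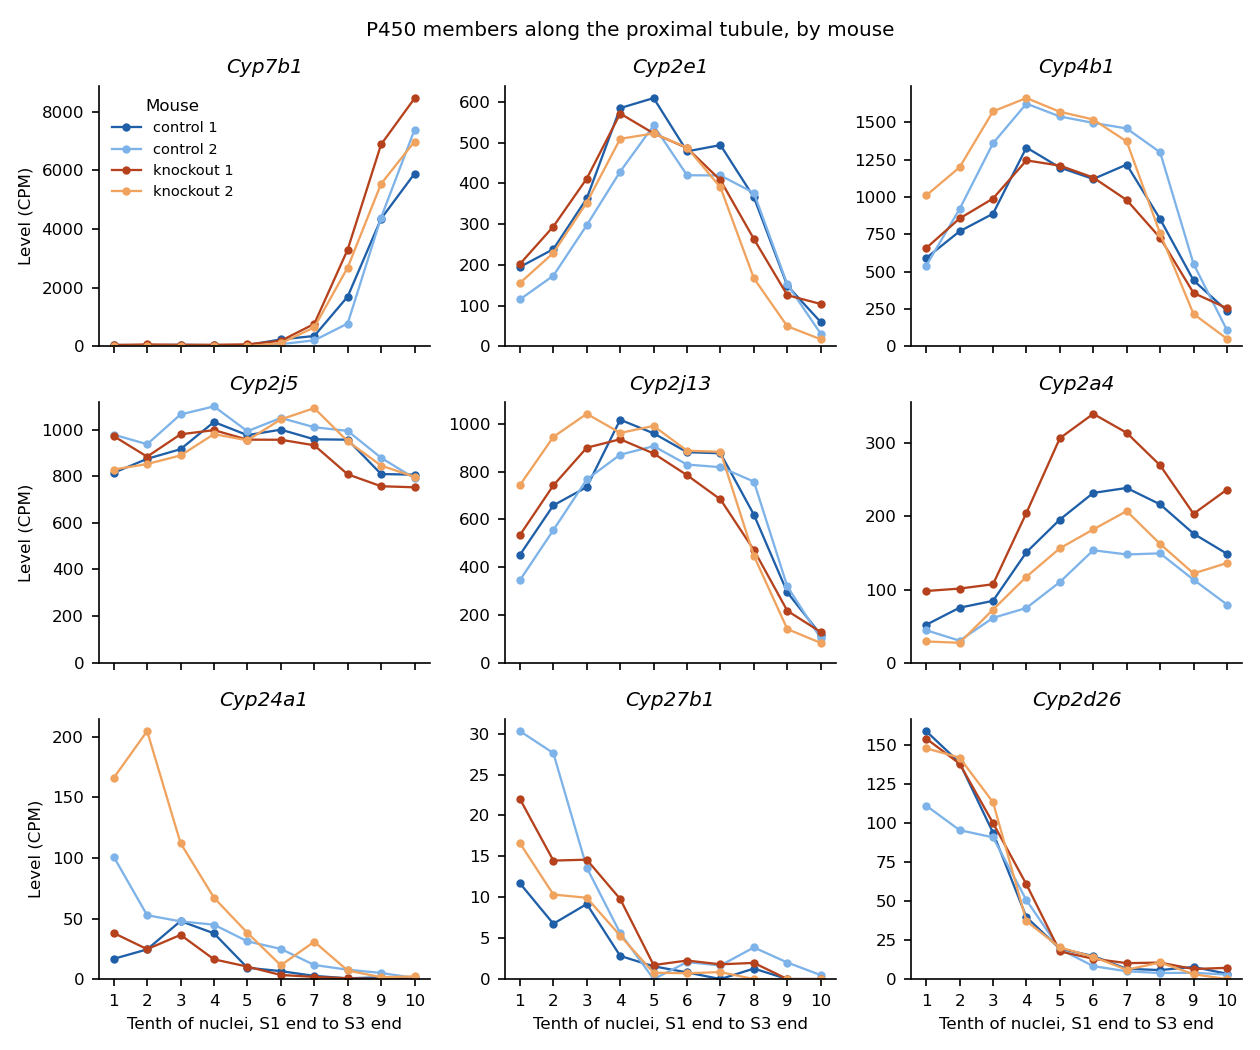
Level of each gene (CPM, linear axes that start at 0) in 10 equal bins of proximal tubule nuclei ordered from the S1 to the S3 end by marker genes that hold no P450 gene, with 1 line per mouse. *Cyp7b1* climbs from bin 6 on to 7179 CPM on average in bin 10 in all 4 mice, *Cyp2j5* goes from 1027 CPM in bin 4 to 787 CPM in bin 10, and *Cyp24a1* is highest in knockout mouse 2 at the S1 end.

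The shares of nuclei with *Cyp4b1* or *Cyp7b1*, thinned to 1000 UMIs, also differed between S2a and S3. In S2a, 70.3% to 80.1% of nuclei of a mouse had a *Cyp4b1* UMI and at most 0.287% had 2 or more *Cyp7b1* UMIs. In S3, 80.6% to 89.8% had 2 or more *Cyp7b1* UMIs and 7.64% to 22.4% had a *Cyp4b1* UMI beside 4.2% to 29.6% in TAL. Both together were seen in 14.35% and 6.05% of S3 nuclei of control mice 1 and 2 and in 18.8% and 5.23% of those of knockout mice 1 and 2. Whether the 2 genes avoid each other within a nucleus was not tested. The *Cyp7b1* UMIs of S2 lay in few nuclei, with 28 of 5692 nuclei holding 5 or more and up to 46 in 1 nucleus. In S2b, between 0.329% and 1.91% of nuclei of a mouse had 2 or more *Cyp7b1* UMIs, although this cluster had 7 of the 8 S3 markers.

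Outside the proximal tubule, 8 of the 9 genes stayed below their level in their highest segment in each mouse, the exception being *Cyp2a4* in immune cells. The highest mean of *Cyp7b1* there was 332 CPM in interstitial cells, followed by 216 CPM in CD-PCs and 199 CPM in endothelial cells, and these ranges overlapped. *Cyp4b1* came next to the proximal tubule in endothelial cells, with 457 and 415 CPM in control mice 1 and 2 and 628 and 399 CPM in knockout mice 1 and 2, which overlapped with its range in S1a. *Cyp2j5* had at most a mean of 316 CPM and *Cyp2e1* of 236 CPM, both in immune cells, a class of 105 nuclei. *Cyp2a4* had 254 and 145 CPM in immune cells of control mice 1 and 2 and 226 and 200 CPM in those of knockout mice 1 and 2, from 34 UMIs in all, which was above its level in S2 in 3 of the 4 mice. *Cyp24a1* was at 0 in 4 and *Cyp27b1* in 5 of the 11 other classes, which allows up to 18.9 CPM in the smallest of them and 1.67 and 1.41 CPM in the largest. The first of these limits lies above the mean of *Cyp27b1* in S1, 14.4 CPM.

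**Figure D2:**
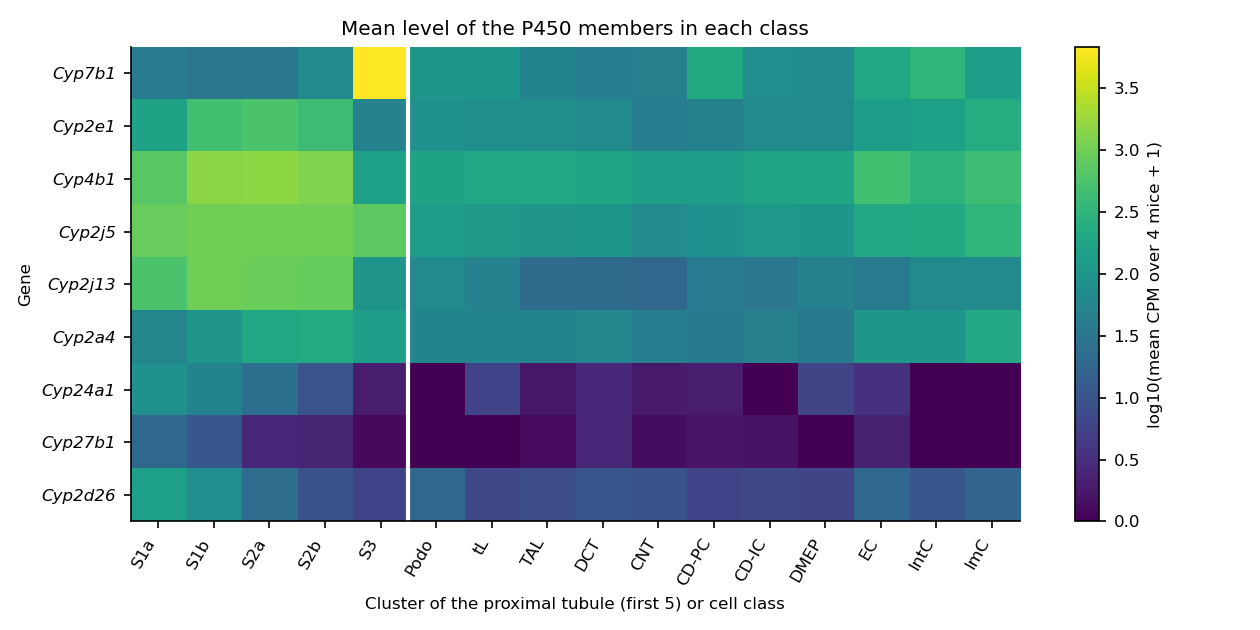
Mean level over 4 mice (colour, log10 of CPM + 1) of each gene in the 5 proximal tubule clusters, left of the white line, and in 11 other classes: podocytes (Podo), the thin (tL) and the thick ascending limb (TAL), the distal convoluted (DCT) and the connecting tubule (CNT), principal (CD-PC) and intercalated (CD-IC) cells of the collecting duct, deep medullary epithelium of the pelvis (DMEP), endothelial (EC), interstitial (IntC) and immune (ImC) cells. *Cyp7b1* is highest in S3 and *Cyp24a1*, *Cyp27b1* and *Cyp2d26* are highest in S1a, at 86.4, 17.8 and 142 CPM.

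These levels were set against free RNA. In the 11 other classes its share was set so that the proximal tubule markers together have a ratio of 1. A gene that follows these markers over the classes is therefore near 1 by construction. Proximal tubule RNA from mixed droplets counts as free RNA there. For *Cyp2j5* the observed UMIs in the 11 other classes were 0.868 to 1.49 times those of free RNA alone, for *Cyp2e1* 0.776 to 1.57 times, for *Cyp2j13* 0.819 to 1.66 times, for *Cyp2a4* 0.912 to 1.83 times and for *Cyp4b1* 0.597 to 1.85 times, the last being highest in endothelial cells. In the segments where they were highest, the same ratios were 10.4 for *Cyp2j5*, 7.29 for *Cyp2e1*, 26.5 for *Cyp2j13*, 5.60 for *Cyp2a4* and 7.55 for *Cyp4b1*. *Cyp2a4* in S1 had a ratio of 1.73, within its range in the other classes. *Cyp24a1* and *Cyp27b1* had too few UMIs outside the proximal tubule, 35 and 13, for such ratios to be read.

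*Cyp7b1* in CD-PCs stood above free RNA by 3.39 times (95% interval 3.19 to 3.59, counting error only), in interstitial cells by 2.26 times and in endothelial cells by 1.97 times. In CD-PCs it had 183 and 221 CPM in control mice 1 and 2 and 209 and 250 CPM in knockout mice 1 and 2. The top 5% of CD-PC nuclei held 56.4% of these UMIs, and 24 of the 1310 nuclei had 5 or more, with up to 89 in 1 nucleus. Called doublets, droplets whose profile resembles that of 2 nuclei mixed, made up 9.01% of CD-PC nuclei, and without them the levels were 94.3 and 140 CPM in the control mice and 130 and 178 CPM in the knockout mice. In the interstitial cells of knockout mouse 2, 37 of 46 UMIs lay in 1 nucleus, and without called doublets the level fell from 643 to 134 CPM. How much of the remaining *Cyp7b1* in these classes came from further mixed droplets was not tested.

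**Figure D3:**
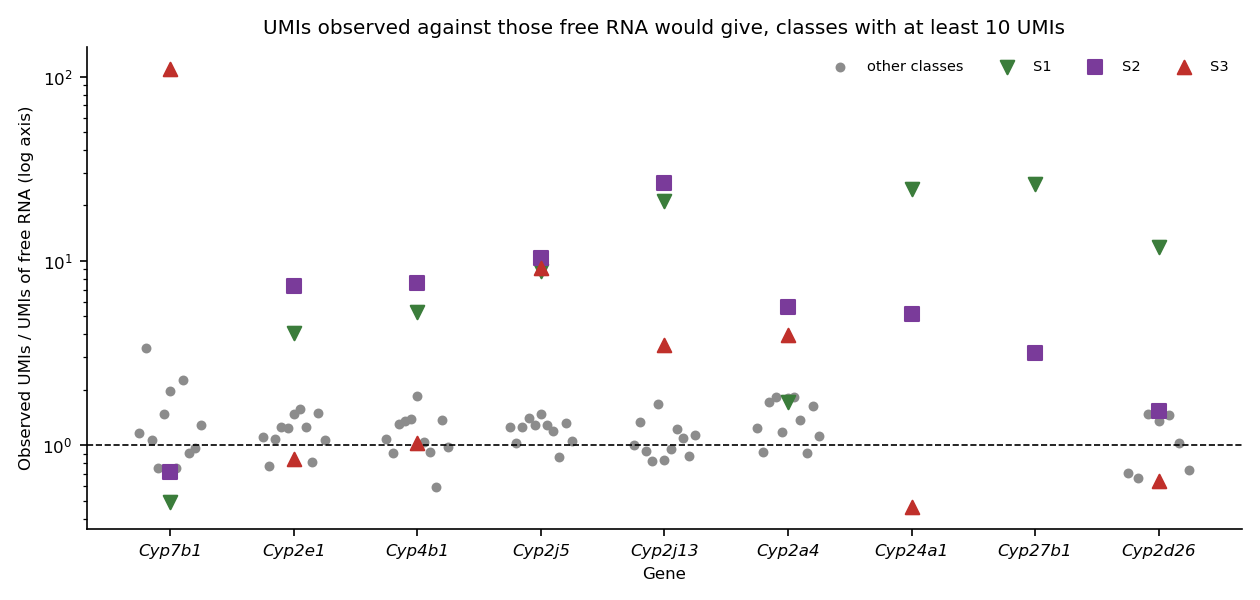
UMIs observed over those that free RNA alone would give (log axis) for each gene, as 1 point per class with at least 10 UMIs over the 4 mice, with the dashed line at a ratio of 1. Grey points for classes outside the proximal tubule lie near 1 for most genes, S3 of *Cyp7b1* lies at 110, and CD-PCs are its highest grey point at 3.39.

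Between genotypes none of the 9 genes was called in a segment. In S1, S2 and S3, 26 tests of a gene in a segment gave 0 calls (edgeR, knockout against control, 2 mice each) and 0 with an unadjusted p under 0.05, and DESeq2 also called 0. Of all genes tested, 0.00692% were called in S1, 0.00645% in S2 and 0.0273% in S3, so that a count of 0 among 9 genes says little about them. The estimates lay between −0.65 for *Cyp7b1* in S2 and 1.04 for *Cyp24a1* in S1. In the segment where each was highest, the log2 fold changes were 0.08 ± 0.22 (SE, 2 mice per group) for *Cyp7b1*, −0.06 ± 0.20 for *Cyp2e1*, 0.36 ± 0.35 for *Cyp2a4* and 0.14 ± 0.21 for *Cyp2d26*. They were −0.06 ± 0.23 for *Cyp4b1*, −0.07 ± 0.18 for *Cyp2j5* and −0.05 ± 0.18 for *Cyp2j13*. For the vitamin D genes they were 0.11 ± 0.42 for *Cyp27b1* and 1.04 ± 0.74 for *Cyp24a1*. In each of these 9 cases the control and knockout mice overlapped.

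The smallest unadjusted p was 0.056, for *Cyp2d26* in S2, where control mice had 12.3 and 7.04 CPM and knockout mice 16.3 and 17.7 CPM, without overlap. Its UMIs in S2 were 1.54 times those of free RNA. *Cyp2j13* in S1 also had no overlap, with 651 and 625 CPM in the control mice and 772 and 904 CPM in the knockout mice, and a log2 fold change of 0.37 ± 0.18 (edgeR unadjusted p = 0.083, not called). *Cyp24a1* in S1 was called without a filter on low counts (1.06 ± 0.25, edgeR adjusted p = 0.0077) and turned to −0.58 without knockout mouse 2, on whose 159 CPM the estimate rests. In simulated data of this size, 38% of genes changed by a log2 of 1 in S1 and 95% of those changed by 2 were recovered. The simulation gave all genes 1 dispersion of 0.03. In the data the SE in S1 was 0.74 for *Cyp24a1* and 0.67 for *Cyp7b1*, and for such genes recovery can be lower. For any 1 gene the smallest p that exact permutation of these 4 mice allows is 0.333, and groups without overlap give just this p. The share of all genes without overlap is not given here, so a lack of overlap by itself is no finding.

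Over all proximal tubule nuclei 0 of 9 genes were called by genotype (edgeR; 0 with an unadjusted p under 0.05), beside 0.00564% of all genes. S3 nuclei made up 21.8% and 35.8% of proximal tubule nuclei in control mice 1 and 2 and 17.8% and 23.5% in knockout mice 1 and 2, and *Cyp7b1* over the whole tubule was 1437, 2835, 1563 and 1509 CPM in the same mice. Control mouse 2 had the highest share and the highest level, and knockout mouse 1, with the lowest share, had the second highest level, and the part of the shares in these levels was not tested. The S3 share differed by −0.47 ± 0.50 on the log2 scale between genotypes (edgeR adjusted p = 0.492), with the groups overlapping, and the cut through the kidney can set such shares.

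In the other classes 73 tests gave 0 calls by genotype (edgeR), with 8 at an unadjusted p under 0.05 and a smallest adjusted p of 0.725 (*Cyp2j13* in the deep medullary epithelium of the pelvis, 1.92 ± 0.61 on the log2 scale). That estimate rests on 34 UMIs, 31 of them in 11 nuclei. Without called doublets the direction turned, with 25.4 and 4.91 CPM in control mice 1 and 2 and 17.4 and 0 CPM in knockout mice 1 and 2. Of all genes 0.0172% were called in endothelial cells, 0.0135% in TAL, 0.00973% in the deep medullary epithelium and 0% in the other 8 classes. The genotype change in S3 less that in S1 was called for 0 of the 9 genes (edgeR), with 1 at an unadjusted p under 0.05, *Cyp27b1*, which rests on 3 UMIs in S3. Of all genes 0.135% were called in this comparison. *Cyp7b1* had a difference of 0.56 ± 0.33 (edgeR adjusted p = 0.995), which became 1.90 ± 0.30 and was called without knockout mouse 1 (edgeR adjusted p = 0.0026). In S1, as given above, *Cyp7b1* was not detectable above the free RNA estimate.

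**Figure D4:**
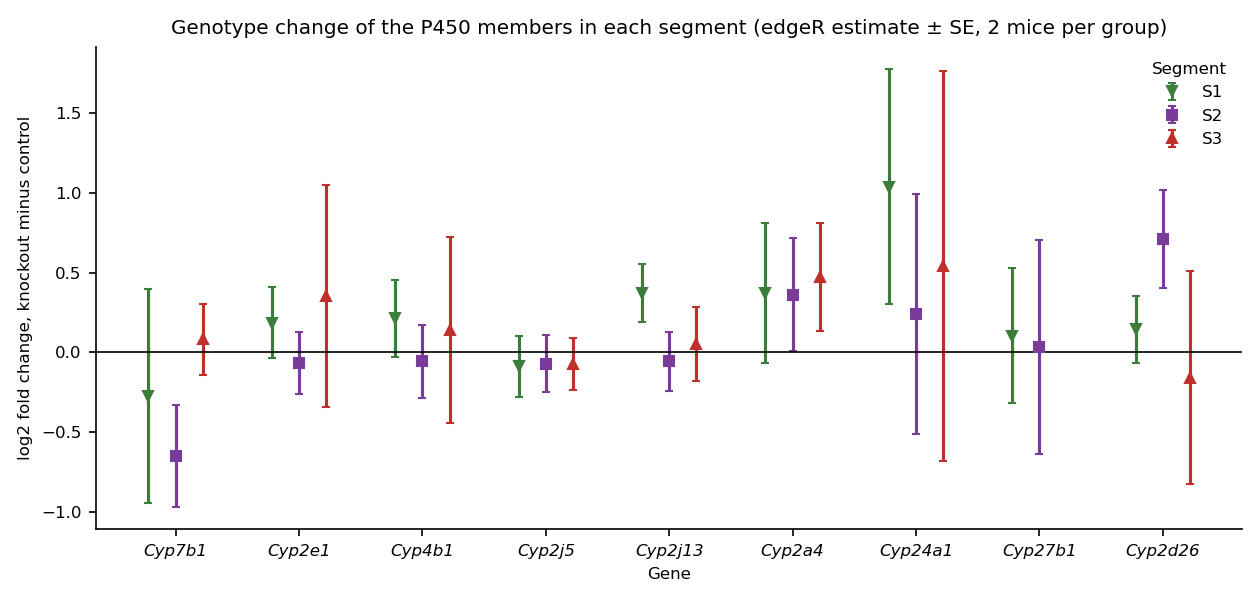
Log2 fold change of each gene between knockout and control mice in S1, S2 and S3 (edgeR estimate, bars of 1 SE, 2 mice per group), for the 26 tests with enough UMIs. All estimates lie between −0.65 and 1.04 and none was called.

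Genes around the P450 system were taken from 5 lists. Of 14 electron partners and heme genes, 4 rose and 6 fell from S1 to S3 (edgeR, as above), with a median log2 change of −0.11 beside 0.05 for all genes. Of all genes tested, 22.1% rose and 20.6% fell in this comparison, the shares against which the counts of each list stand. *Por*, the reductase that feeds electrons to P450 enzymes of the endoplasmic reticulum, rose by 1.03 ± 0.09 (SE, 4 mice), from 158 to 223 CPM over mice in S1 to 328 to 468 CPM in S3. *Blvrb* (0.85), a biliverdin reductase, and *Fdx1* (0.27), the ferredoxin that serves mitochondrial P450 enzymes, rose too. *Hmox1*, which breaks down heme, fell by 1.54, *Alas1*, which starts heme synthesis, by 0.62 and *Cyb5b*, a cytochrome of the mitochondrial outer membrane, by 0.55.

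Of 17 genes of vitamin D and phosphate handling, 1 rose and 13 fell from S1 to S3 (edgeR), beside 22.1% and 20.6% of all genes, with a median of −0.61. The phosphate transporters *Slc34a3* and *Slc34a1* fell by 4.91 ± 0.18 and 4.65 ± 0.18 on the log2 scale and *Dab2*, an endocytic adaptor, by 3.42 ± 0.08, in the direction of *Cyp27b1* and *Cyp24a1*. *Fgfr1*, which with Klotho forms the receptor of a phosphate-regulating hormone, rose by 1.61 ± 0.09. *Slc34a1* is also among the markers by which proximal tubule clusters were named, though not among those of a segment.

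Of 26 nuclear receptors and other regulators of P450 genes, 12 rose and 5 fell (edgeR), beside 22.1% and 20.6% of all genes, with a median of 0.52. *Esr1*, the estrogen receptor alpha, rose by 6.69 ± 0.15 on the log2 scale, from 2.65 to 12.8 CPM over mice in S1 to 204 to 255 CPM in S2 and 600 to 818 CPM in S3, in the order of *Cyp7b1* but with a clear level already in S2. *Cebpb*, a transcription factor, rose by 2.31 ± 0.16 and *Ghr*, the growth hormone receptor, by 2.26 ± 0.09. *Nr1i2*, the pregnane X receptor, fell by 2.18 ± 0.21, *Nr1h4*, the bile acid receptor, by 1.74 ± 0.07 and *Nr3c1*, the glucocorticoid receptor, by 1.47 ± 0.10.

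Of 10 genes known to respond to androgens or to be higher in males, 7 rose and 2 fell (edgeR), beside 22.1% and 20.6% of all genes, with a median of 0.79. The count and the median include *Slc7a13* (4.43) and *Acsm3* (4.04), which are S3 markers used to name the segments and so are no finding. The next was *Nudt19* (2.07). *Odc1*, the first enzyme of polyamine synthesis, fell by 1.12 and *Slc22a28*, an organic anion transporter, by 1.04. Of 20 conjugating and lipid enzymes tested, 7 rose and 7 fell (edgeR), beside 22.1% and 20.6% of all genes, with a median of −0.07. *Hsd11b1*, which activates glucocorticoids, rose by 2.96 ± 0.12, *Gstm1*, a glutathione transferase, by 2.27 ± 0.11 and *Fmo5*, a flavin monooxygenase, by 1.95 ± 0.09. *Ugt2b38*, a glucuronosyltransferase, fell by 2.86 ± 0.20, *Gsta2* by 2.69 ± 0.12 and *Gstt1*, both glutathione transferases, by 1.78 ± 0.13. Of the 85 list genes tested by genotype in S1, S2 or S3, 0 were called (edgeR).

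**Figure D5:**
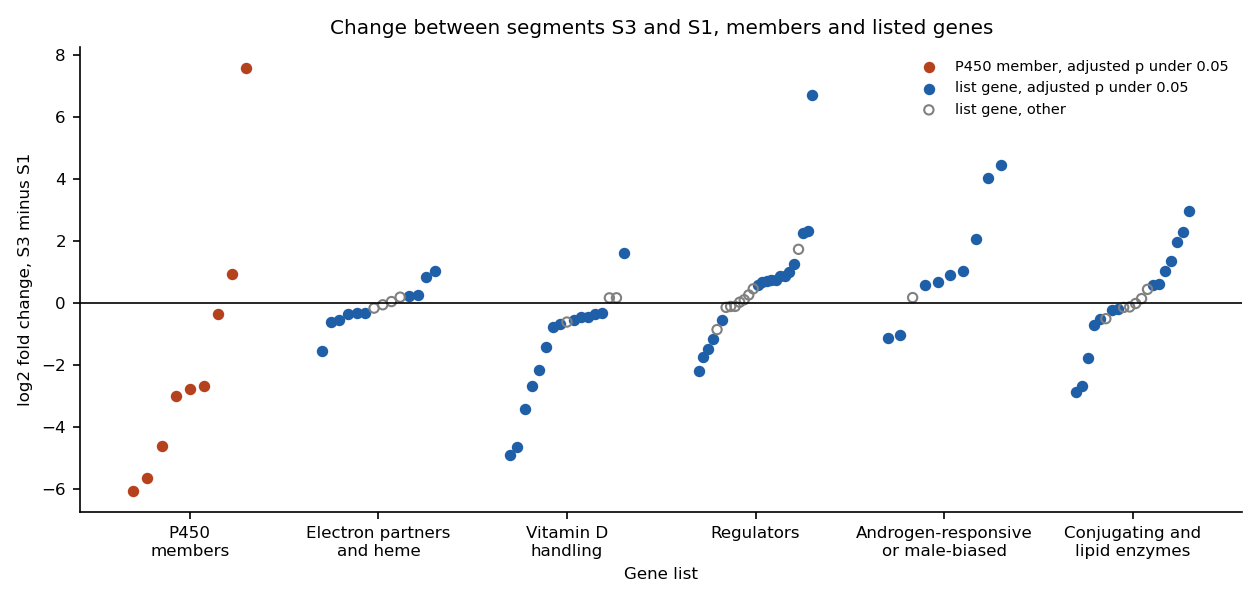
Log2 fold change between S3 and S1 (edgeR, 4 mice) of the 9 P450 genes in red and of the genes of 5 lists, 1 point per gene in ascending order within each list, filled where the adjusted p was under 0.05. *Cyp7b1* at 7.56 and *Esr1* at 6.69 are the highest points, and 13 of 17 genes of vitamin D handling are filled points below 0.

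Among the other P450 genes, 10 rose and 12 fell from S1 to S3 of 53 tested (edgeR), beside the 42.8% of all genes called. The 5 with most UMIs ran both ways. *Cyp51*, which acts in cholesterol synthesis, rose by 3.09 ± 0.14 on the log2 scale, with 22.8 to 50.7 CPM in S1 and 307 to 379 CPM in S3. *Cyp4a31*, of a family that hydroxylates the ends of fatty acids, rose by 2.23 ± 0.11, and *Cyp2j11*, which lies between *Cyp2j13* and *Cyp2j5*, by 1.77 ± 0.09, from 95.8 to 136 CPM in S1 to 398 to 489 CPM in S3. The 3 Cyp2j genes thus ran in 3 ways along the tubule. *Cyp2d12* fell by 5.77 ± 0.22, as *Cyp2d26* did. *Cyp4a12a* had a fitted change of −0.46 ± 0.16 (edgeR adjusted p = 0.024), but its levels overlapped between S1 and S3 and control mouse 1 was higher in S3. By genotype 0 of the other P450 genes were called in S1, S2, S3 or the whole tubule (edgeR).

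The 9 genes were also compared with all other genes by their log2(CPM + 1) over 56 sums, 4 mice by 14 classes, which share libraries and hold many classes at the level of free RNA, so that Pearson's r is a description. The genes most like *Cyp2j5* were *Acsm2* (r = 0.975), *Pdzk1* and *Fbp1*, and those most like *Cyp2a4* were *Acy3* (0.956), *Ttc36* and *Kap*. *Cyp4b1* was nearest to *Miox* (0.921), *Ass1* and *Slc34a1*, and *Cyp2j13* to *Slc2a2* (0.836), *Glyat* and *Cryl1*. Among the genes most like *Cyp2e1* were *Miox* (0.871) and *Glyat* (0.857). For *Cyp7b1* the nearest were *Gm41162* (0.815), *Gm33472* and *Gm11754*, which carry only predicted gene names. *Cyp2d26* had lower values, with *Nepn* (0.745), *Lgmn* and *Mdk*. *Cyp24a1* was nearest to *Olfr93* (0.802), *Ugt1a7c* and *Rptn*, and *Cyp27b1* to *Gm44850* (0.809), *Gm47564* and *Gm12962*. Among the 9 genes themselves, *Cyp2e1* and *Cyp4b1* were most alike (r = 0.862), and *Cyp7b1* had r between −0.26 and 0.38 with the other 8.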

How the data were processed

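Kidney nuclei of 4 mice were profiled by droplet single-nucleus RNA-seq, with 1 library per mouse and 2 mice per genotype, so replicates are separate mice. The authors deposited 1 matrix of raw UMI counts per library, unnormalized and with all barcodes, made with Cell Ranger 3.0.2 on mm10 per the labels. The gene annotation and the treatment of intronic and multi-mapped reads are not given in the sources used here. No cell annotation was used. Of the 10000 largest barcodes per library, nuclei with more than 500 and fewer than 4000 genes and under 5% mitochondrial UMIs were kept. They were integrated and clustered with Seurat 5.3.0 in R 4.3.3 (2000 variable genes without P450 genes, 30 dimensions, resolution 0.5) and named from marker genes. Damaged clusters (1039 nuclei), mixed clusters (880) and unnamed clusters (234) were left out. Doublets were called by simulation (between 236 and 512 nuclei per library) and kept in the main sums. Of the nuclei in the mixed clusters, 69.0% were among those called.

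UMI counts were summed per mouse and class. Segments were compared with the mouse as a term and genotypes without one by edgeR 4.0.16 (quasi-likelihood test, TMM, at least 10 UMIs over the sums, Benjamini-Hochberg adjusted over all genes tested, threshold 0.05), and segment shares by the same test on nuclei. The difference of the genotype change between S3 and S1 was fitted with mice nested in genotype. DESeq2 1.42.0 was an alternative. Intervals at 95% are exact Poisson intervals, for a ratio of 2 pooled counts exact binomial ones, and, like the limit of 3 counts for a count of 0, cover counting error only. In simulated data with a dispersion of 0.03 for all genes, 78% of genes changed by a log2 of 1 between segments and 100% of those changed by 2 were recovered. Alternatives covered the normalization, filters, clustering, free RNA, doublets, mitochondrial share, replicate block and each mouse left out, and a setting without the clusters S1b and S2b was added after the data were seen. The 9 genes and the gene lists were chosen with earlier results of these data known. Named besides the 9 genes are the 3 genes most like each in pattern (1 of them is not reported here), up to 3 called genes per list and direction with the largest change between S3 and S1, and the 5 other P450 genes with most UMIs. *Cyp2a5* is named as the near copy of *Cyp2a4*.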

Additional observations from a re-analysis of the deposited data

How the results depend on the processing

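Of 459 values for the change of a gene between segments under an alternative, 433 kept their direction and their side of the threshold, 11 lost and 10 gained a call, and 5 turned sign. Those that turned were, at resolution 0.8, *Cyp7b1* from S1 to S2 (−0.20), *Cyp2a4* from S2 to S3 (0.18), *Cyp2j5* (0.01) and *Cyp2e1* (0.40) from S1 to S3, and, without the clusters S1b and S2b, *Cyp7b1* from S1 to S2 (−0.14). Of 144 genotype values in the segment where a gene was highest, 125 kept both, 1 gained a call and 18 turned sign, none of the 18 being called. *Cyp27b1* in S1 became −0.50 without integration, −0.18 under 1% mitochondrial UMIs and −0.11 without S1b and S2b, *Cyp2j13* in S2 became 0.0497 at resolution 0.8 and 0.0015 without S1b and S2b, and *Cyp7b1* in S3 became −0.32 at resolution 0.8. With 1 mouse left out, the values ranged from −0.45 to 0.70 for *Cyp27b1* in S1, from −0.58 (without knockout mouse 2) to 1.78 for *Cyp24a1* in S1, from −0.0693 to 0.39 for *Cyp2d26* in S1, from −0.15 to 0.0228 for *Cyp2j13*, from −0.30 to 0.14 for *Cyp4b1*, from −0.17 to 0.73 for *Cyp2a4* and from −0.22 to 0.11 for *Cyp2e1* in S2, and from −0.11 to 0.25 for *Cyp7b1* in S3. The cause of these changes was not tested.

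The number of all genes called from S1 to S2 was 5163, with 3168 in the control mice alone and 2631 without the mouse as a term, and from S2 to S3 5299, 3459 and 3134. With 1 mouse left out these ranged from 3960 to 4785 and from 4412 to 4738, and from 6543 to 6955 between S3 and S1. Of the 9 genes, 5 to 7 were then called from S1 to S2, 9 from S2 to S3 and 9 from S1 to S3. By genotype, 1 gene was called over the whole tubule, 1 in S1, 1 in S2 and 4 in S3 (edgeR; 611, 439, 473 and 430 at an unadjusted p under 0.05). DESeq2 called 17, 11, 16 and 15, and without a filter on low counts 5, 123, 161 and 7 were called, 1 of them being *Cyp24a1* in S1. With free RNA subtracted the counts were 0, 0, 0 and 1. The count in S1 was also 0 at resolution 0.8, without integration and without S1b and S2b, the last also over the whole tubule. In S2 it was 0 under filterByExpr, without integration and with P450 genes kept in clustering, and in S3 1 at resolution 0.8 and under filterByExpr. With 1 mouse left out the ranges were 0 to 1, 0 to 33, 0 to 3 and 4 to 9, with 33 in S1 without knockout mouse 1, and 0 of the 9 genes were called in each. For the change in S3 less that in S1, 24 genes were called, with 40 at resolution 0.8, 6 by DESeq2, 6 under filterByExpr, 37 under 1% mitochondrial UMIs, 103 without a filter and 13 to 46 with 1 mouse left out, among which 0 to 1 of the 9 genes (*Cyp7b1* without knockout mouse 1). The genotype difference of the segment shares lay between 0.06 and 0.31 for S1, −0.0154 and 0.30 for S2 and −0.80 and −0.08 for S3 with 1 mouse left out, and was −0.27 for S1 without integration. The class with the highest level was kept for 8 to 9 of the 9 genes, with *Cyp2a4* higher in immune cells without knockout mouse 1, without integration and at resolution 0.8.

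Both genotypes have mice numbered 1 and 2. Same-numbered mice deviated together (r = 0.417 in S1, 0.410 in S2, 0.468 in S3), but no label pairs them and there are only 2 pairs. What they share beyond the number is not known. With the replicate number as a block, 37 genes were called in S1, 26 in S2, 35 in S3 and 11 over the whole tubule, 2 with the block in place of the mouse for the difference between S3 and S1, and 0 of the 9 genes in each. *Cyp24a1* in S1 then had 0.73 in place of 1.04 on the log2 scale, and the segment shares differed by 0.18, 0.14 and −0.45. Depth limits *Cyp24a1* and *Cyp27b1* in S3, with 12 and 3 UMIs, and free RNA limits all low levels.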

Other observations

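A cluster of 864 proximal tubule nuclei with few UMIs and a high mitochondrial share was left out as damaged, and 257, 26, 568 and 13 of its nuclei came from control mice 1 and 2 and knockout mice 1 and 2. In these nuclei *Cyp4b1* had 2412, 3105, 2336 and 2935 CPM in the same mice, above its range of 1148 to 1554 CPM in S2. *Cyp2a4*, with 694, 554, 764 and 870 CPM, *Cyp2e1*, with 724, 698, 978 and 978 CPM, and *Cyp2j5*, with 1240, 1853, 1389 and 1576 CPM, were also above their ranges in each segment. *Cyp2j13* had 219, 144, 246 and 163 CPM, below its range in S1 and S2. *Cyp7b1* had 490, 385, 409 and 217 CPM, between S2 and S3. These levels lay on both sides of those in the proximal tubule segments, with no test and no comparison with free RNA. Control mouse 2 and knockout mouse 2 gave only 26 and 13 nuclei.

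Within the CD-PCs, *Cyp7b1* had 271, 424, 436 and 397 CPM in the cluster with *Aqp3*, a water channel of the basolateral membrane, among its leading genes, and 155, 84.6, 32.7 and 177 CPM in the other cluster, lower in each of the 4 mice. Called doublets are included in these levels. Without them the level over all CD-PCs fell to 94.3 and 140 CPM in control mice 1 and 2 and to 130 and 178 CPM in knockout mice 1 and 2.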
